A study of Mus musculus with 4 samples.

Results

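Conventional dendritic cells were looked for among the live cells of 2 mouse pancreatic tumors by a rule on marker genes, and 77 of the 5360 filtered cells of the all live fraction met it. Cells were kept with 500 genes or more and no more than 10% of mitochondrial UMIs (unique molecular identifiers, which count each captured transcript once). A dendritic cell had H2-Ab1, H2-Aa, H2-Eb1 and Cd74 together at 50 or more UMIs per 10000, and at least 2 of Flt3, Xcr1, Clec9a, Cd209a, Ccr7, Ccl22 and Fscn1 detected. It also had no UMI of Siglech (plasmacytoid dendritic cells) or Cd79a (B cells), and C1qa, C1qb and C1qc (macrophages) together under 10 UMIs per 10000. The levels of these genes chose the cells, so their values are a description and nothing was tested on them.

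The tumors were taken from KPC mice on the C57BL/6J background, which carry Trp53LSL-R172H/+ and Pdx1-Cre among their alleles. Pdx1-Cre, active in the pancreatic lineage, switches on mutant Trp53 (R172H) in that lineage, while the immune cells come from the host, and the samples included no tumor-free pancreas. Each tumor gave 2 libraries made with 10x Chromium 3' chemistry, 1 of all live cells, which excluded the dye DAPI, and 1 of live cells sorted as CD45-, CD31-, EpCAM- and PDPN+ (sorted CAF, for cancer-associated fibroblasts). The genotype was the same in all 4 libraries, and the ages and sexes of the mice are not given in the sources used here. With 1 all live library from each tumor there was no replicate within a tumor, so no test was run, and intervals cover counting error only.

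Conventional dendritic cells take up antigen in tissues, carry it to lymph nodes and present it to T cells on MHC class II. They develop through the growth factor receptor Flt3 into the cDC1 type, which carries Xcr1 and Clec9a and presents cell-derived antigen to CD8+ T cells, and the cDC2 type, which includes cells with Cd209a and presents mainly to CD4+ T cells. On maturation both types turn on Ccr7, the receptor for the lymph node chemokines, and the actin-bundling protein Fscn1. Such cells are few in pancreatic tumors, where macrophages with class II genes are far more common.

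In all live library 1 the rule kept 6 of 1933 filtered cells (0.310%, exact 95% interval 0.114 to 0.674), and in all live library 2 it kept 71 of 3427 (2.07%, 1.62 to 2.61). The sorted CAF libraries, from which CD45+ cells had been gated out, held 0 of 1402 cells in library 1, where 3 cells would be 0.214%, and 1 of 1222 in library 2, a cell with both Xcr1 and Clec9a. The libraries held between 14972652 and 30950993 UMIs, and any 2 of them shared 4 to 6 barcodes, none of which belonged to a dendritic cell. The median dendritic cell had 6574.5 UMIs in tumor 1 and 4982 in tumor 2, whereas the median filtered cell had 10784 and 3336. Since detecting a marker depends on depth, every cell was also thinned to 1600 UMIs, after which 2 cells of library 1 (0.103%) and 38 of library 2 (1.11%) met the rule. The share was higher in library 2 at either depth, in a comparison of 2 libraries only. The libraries also differed in make-up. Cells at or above the class II threshold numbered 157 of 1933 in library 1 and 1316 of 3427 in library 2. Cells with keratins numbered 1056 and 240. The part of this make-up in the share of dendritic cells was not tested.

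Most cells sat well inside the class II threshold. The summed level of the 4 class II genes ran between 51.6 and 1037 UMIs per 10000 in tumor 2, with a median of 399.6, and 5 cells that met the rest of the rule lay below the threshold, the highest at 34.2. The marker count cut through more cells: 40 of the 71 had exactly 2 of the 7 markers, 20 had 3 and 11 had 4 or more, while 84 cells had 1 marker and 237 had none with all else met. The C1q level was 0 in 61 of the 71 and at most 8.86 UMIs per 10000 in the others, and 5 cells failed on C1q alone, from 14.9 upward. Another 5 cells failed on Siglech alone. Leaving out cells with markers of other types left 3 of 1933 in library 1 (0.155%) and 70 of 3427 in library 2 (2.04%). In tumor 1, 3 cells had 2 markers and 3 had more, and 6 cells with 1 marker met the rest.

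Beyond the rule, the label was read against genes that mark the dendritic lineage. Of 12 such genes, which include Zbtb46 (a transcription factor of conventional dendritic cells), Itgax (CD11c), Cst3 (cystatin C) and Dpp4, all had UMIs in the tumor 2 cells and together they stood at 21170 CPM (UMIs of a gene per 1000000 UMIs, both summed over cells; 20705 to 21644). They stood at 4444 CPM in class II-positive cells with C1q and at 3251 CPM in B cells of the same tumor. Zbtb46 had 11 UMIs in the 71 cells, against 1 in 769 C1q-high cells. By gene, 10 of 11 measured were past 2-fold higher than in C1q-high cells and 0 past 2-fold lower, beside 9.2% and 18.5% of 8389 genes, from which nothing is read. Cst3 carried most of the sum, with 18349 CPM in dendritic cells, 3243 CPM in C1q-high cells and 987 CPM in B cells, and the other 11 genes stood at 2821, 1200 and 2263 CPM in the same order. In tumor 1 the list did not set the 6 cells apart. The 12 genes stood at 6425 CPM in dendritic cells and 5323 CPM in C1q-high cells, without Cst3 at 1113 and 1395 CPM, and 2 of 7 measured genes were past 2-fold higher and 3 past 2-fold lower, beside 11.5% and 29.0% of 4517 genes. This list thus added nothing to the rule's own markers there, and mature and macrophage genes of tumor 1 are given further below. Zbtb46 had no UMI in the 6 cells, a sum in which 3 counts would be 63.0 CPM.

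Markers of other cell types were low in the tumor 2 cells with a few exceptions. The B and plasma list had 4 UMIs in all, with 6 of its 9 genes at 0, among them Cd79a, which the rule held at 0. The 6 mast cell genes had none. The 8 ductal genes had 12 UMIs and the 8 fibroblast genes 11. Of the 14 T and NK cell genes 9 were at 0, and nearly all of the list's 170 UMIs came from Klrd1 (CD94) and Il7r, with 104 and 61. The 11 plasmacytoid genes, of which Siglech was held at 0 in both groups, stood at 433 CPM in dendritic cells, against 367 CPM in C1q-high cells. Neutrophil genes gave 260 UMIs and acinar genes 177, and 1 Cd209a cell held 134 of the 202 S100a8 and S100a9 UMIs and 137 of the acinar ones. Some of the values that include this cell are given with and without it. The list of 20 macrophage and monocyte genes stood at 1674 CPM (1545 to 1811) in dendritic cells, against 36103 CPM in C1q-high cells and 2073 CPM in B cells. It includes C1qa, C1qb and C1qc, on which these groups were chosen, so part of this difference was set by selection.

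Within the 71 cells of tumor 2 the named marker sets were unequal in size and overlapped in part. Xcr1 or Clec9a was detected in 16 cells (22.5%, 13.5 to 34.0), Cd209a in 26 (36.6%, 25.5 to 48.9) and Ccr7 or Fscn1 in 43 (60.6%, 48.3 to 72.0). None of the 16 Xcr1 or Clec9a cells had Cd209a, Ccr7 or Fscn1. Cd209a and Ccr7 or Fscn1 met in 15 cells (21.1%), so the cells fell into 4 sets of 16, 11, 15 and 28, with 1 cell in none. After thinning, the shares among 38 cells were 7.89% for Xcr1 or Clec9a, 26.3% for Cd209a and 78.9% for Ccr7 or Fscn1. Shares of the sets therefore moved with depth, and the median cell had 6988.5 UMIs in the Xcr1 or Clec9a set, 5448 in the Cd209a-only set, 3987 in the overlap and 4034 in the remaining Ccr7 or Fscn1 cells. The plot of marker genes shows the 4 sets cell by cell.

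**Figure D1:**
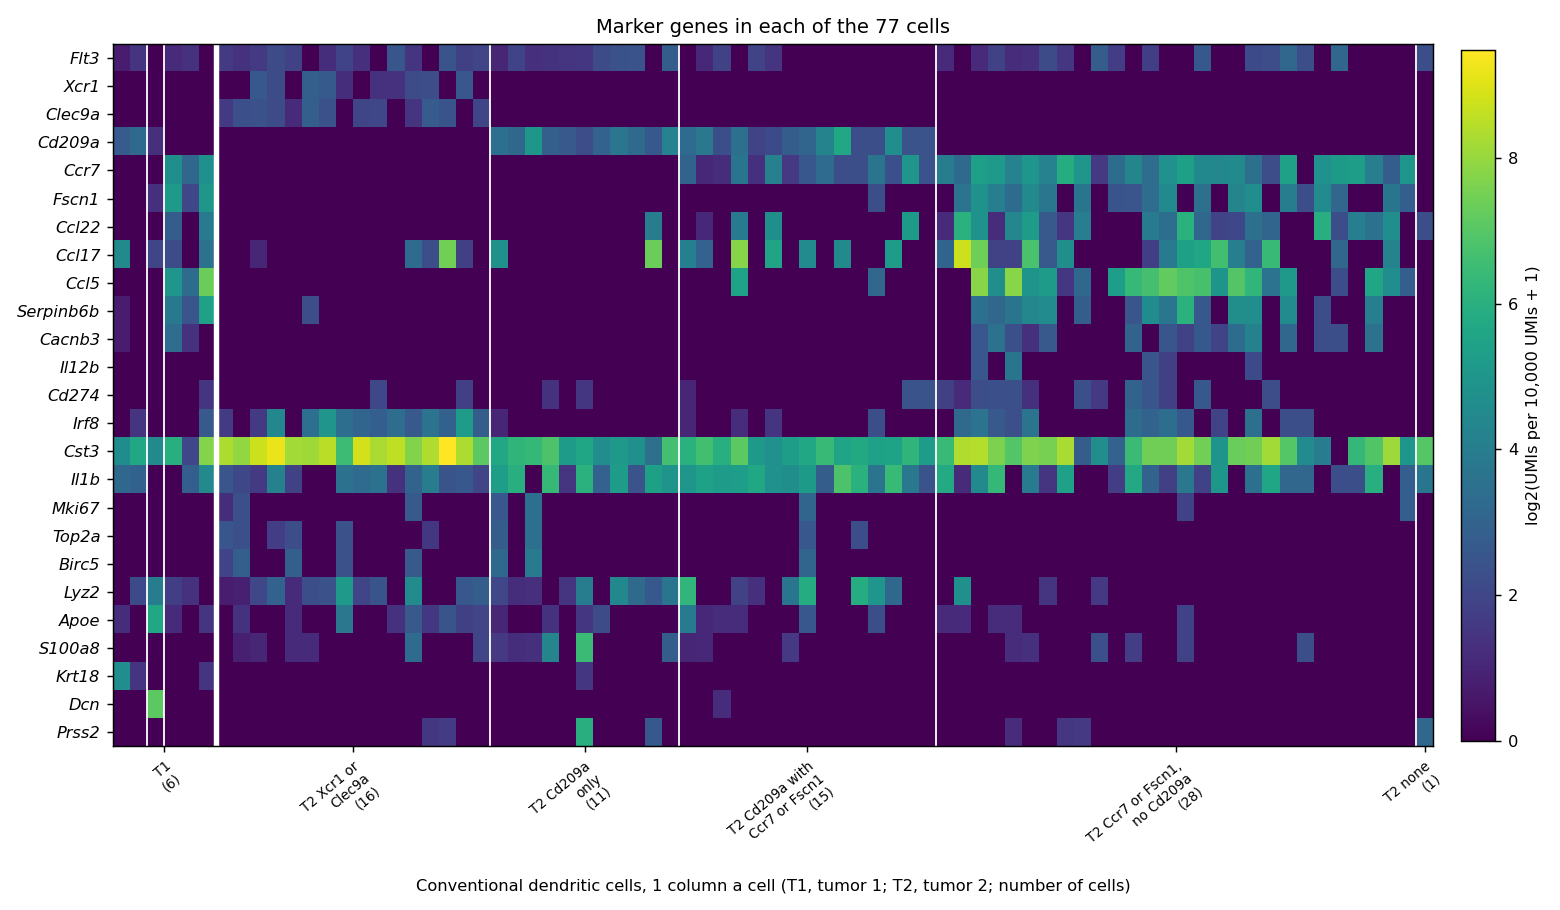
Marker genes (rows) in each of the 77 dendritic cells (columns), as log2 of UMIs per 10000 plus 1, with the 6 cells of tumor 1 at the left and the 71 of tumor 2 grouped by set. Cst3 is brightest in the 16 Xcr1 or Clec9a cells, Ccl5 and Serpinb6b are bright in part of the 28 Ccr7 or Fscn1 cells, and Dcn, Krt18 and Prss2 are each bright in 1 cell.

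Xcr1, the receptor for the chemokine Xcl1, and Clec9a, a receptor for dead cells, were both detected in 7 of the 16 cells, Xcr1 alone in 3 and Clec9a alone in 6. Flt3 was detected in 13 of the 16 and Ccl22 in 0, where 3 cells would be 18.8%. Cells with Xcr1 alone or Clec9a alone needed a further marker to meet the rule. With no Cd209a, Ccr7, Fscn1 or Ccl22 in the set that marker was always Flt3, so the rule set much of this share. Of the 20 genes on a cDC1 list that leaves out Xcr1 and Clec9a, 13 reached 20 UMIs over the compared cells. Of those, 9 were past 2-fold higher in the 16 cells than in the other 55 of tumor 2 (Btla, Cadm1, Cd24a, Ifi205, Irf8, Itgae, Naaa, Ppt1 and Wdfy4) and 0 were past 2-fold lower. The background was 6.78% of 2494 genes past 2-fold higher and 17.8% past 2-fold lower. The rule's own markers made the contrast, so nothing is read from these shares. The median log2 ratio of the list was 1.96 (2.02 with genes at 0 set to 3 counts), and that of all genes was -0.03.

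Irf8, the transcription factor that cDC1 development depends on, had between 0 and 22 UMIs a cell in the 16 cells with a median of 4.5, against 0 to 1 in the Cd209a-only cells and 0 to 9 in the Ccr7 or Fscn1 cells. It stood at 879 CPM in the set and 217 CPM in the other cells, 4.04-fold higher (95% counting interval 2.89 to 5.72). Cst3, a cysteine protease inhibitor, had 46 to 515 UMIs a cell in the set, median 232, and was detected in every one of its cells. The lowest of them lay within the ranges of the other sets, which reached 71, 105 and 274 UMIs. The summed level was 33960 CPM, against 11052 CPM in the other cells (3.07-fold, 2.93 to 3.23).

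Naaa, a lysosomal amidase, had at least 1 UMI in all 16 cells, median 7.5 and highest 34, and no cell outside the set passed 5. Its level was 1242 CPM in the set and 107 CPM outside it (11.6-fold, 7.69 to 18.3). Itgae (CD103), the integrin of cDC1 in epithelial tissues, had 46 UMIs in the set and 3 outside, a ratio of 32.8 (10.5 to 165). Wdfy4, which cDC1 need for cross-presentation, had 44 UMIs, against 18 outside (5.23-fold, 2.96 to 9.62). These 3 genes were low or absent in the other sets by cell as well as by sum.

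Cadm1, an adhesion molecule, had 24 UMIs in the set and 1 outside it (51.3, 8.37 to 2111), and Ppt1, a lysosomal thioesterase, had 58 and 6 (20.7, 8.95 to 58.7). Tlr3, the receptor for double-stranded RNA, had 11 UMIs in 7 of the 16 cells and none outside, which makes it at least 7.84-fold higher when the other cells are set to 3 counts. Havcr2 (TIM-3), an inhibitory receptor, had 18 UMIs, against 3 (12.8, 3.75 to 68.0), and Mpeg1, a pore-forming protein, was in all 16 cells at 2 to 8 UMIs, against at most 3 in any cell of the other sets. Mpeg1, Tnni2, Gng12, 2810417H13Rik, Ifi205 and Havcr2 were among the 12 genes highest in this set.

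Other genes linked to cDC1 were shared with mature cells. Batf3, the partner factor of Irf8, stood at 177 CPM in the Xcr1 or Clec9a set and at 252 CPM in the Ccr7 or Fscn1 cells, and its ratio over all other cells was 1.21 (0.675 to 2.13). Id2, a repressor needed by cDC1, gave 1225 CPM in the set and 999 CPM in the other cells (1.23, 0.993 to 1.51). Neither was past 2-fold, and both intervals include a ratio of 1.

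The Xcr1 or Clec9a cells were low for most measured genes of the mature list. Of 26 measured genes of a mature migratory list of 38, which does not hold Ccr7, Fscn1 or Ccl22, 0 were past 2-fold higher and 25 were past 2-fold lower (median log2 ratio -3.21, or -2.70 with genes at 0 set to 3 counts). Ccl5, a T cell attracting chemokine, had 0 UMIs in the 16 cells, at least 122-fold lower than in the other cells. Relb, the NF-kB subunit of mature dendritic cells, had 1 UMI, against 71 (0.0301, 0.000752 to 0.173). All 14 measured NF-kB genes of 18 were past 2-fold lower. In this contrast 6.78% of 2494 genes were past 2-fold higher and 17.8% past 2-fold lower. The contrast is that of the rule, so nothing is read from these counts. Il1b stood at 583 CPM, against 2832 CPM (0.206, 0.158 to 0.264). Tmem176a had 0 UMIs and Tmem176b 1, against 202 and 216 in the other 55 cells. Of 14 measured genes of the cytokine list, 11 were past 2-fold lower, among them Il1b and Ccl22, a gene of the rule (median log2 ratio -2.27). Ccl3 and Ccl4 were the only ones past 2-fold higher here, with Ccl4 at 2087 CPM, against 703 CPM (2.97-fold, 2.44 to 3.62).

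The 11 cells with Cd209a and without Ccr7 or Fscn1 had Flt3 in 10 cells and Ccl22 in 1. Their second marker could only be Flt3 or Ccl22, so the rule set these counts and nothing is read from them. Cd209a, a C-type lectin related to DC-SIGN, ran between 1 and 22 UMIs a cell with a median of 3. On a cDC2 list of 20 genes without Cd209a, 5 of 13 measured genes were past 2-fold higher than in the other 60 cells (Clec10a, Fcer1g, Itgam, Sirpa and Tnfsf9) and 2 past 2-fold lower (Ccl17 and Klf4). The background was 8.22% higher and 13.3% lower of 2494 genes, and nothing is read from it because the contrast is that of the rule. The list's median log2 ratio was 0.77 (0.80 with genes at 0 set to 3 counts), against -0.00 for all genes. Without the cell that carried acinar and neutrophil genes, again 5 were past 2-fold higher and 2 past 2-fold lower, beside 7.66% and 15.1% of 2454 genes, and the median was 0.91.

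Clec10a, a galactose-binding lectin of cDC2, had 0 to 11 UMIs a cell with a median of 3, against medians of 0, 2 and 0 in the Xcr1 or Clec9a, overlap and Ccr7 or Fscn1 cells. It stood at 659 CPM, against 163 CPM in the other cells (4.03-fold, 2.55 to 6.31). Sirpa, the receptor for CD47, had 12 UMIs in 6 of the 11 cells, against 17 UMIs in the other 60 (4.23-fold, 1.84 to 9.40), and 1 UMI in the 16 Xcr1 or Clec9a cells. Itgam (CD11b) had 15 UMIs, against 28 (3.21-fold, 1.59 to 6.22). Fcer1g, the adaptor of activating Fc receptors, had 3 to 31 UMIs a cell, median 12, and the 16 Xcr1 or Clec9a cells had 0 to 5, so the 2 ranges met at their ends. Without the 1 cell these ratios were 3.98, 4.32, 3.34 and 2.68.

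Ccr2, the receptor that monocytes and cDC2 precursors use to enter tissue, stood at 433 CPM in the Cd209a-only cells, against 135 CPM (3.21-fold, 1.84 to 5.44), and at 16.3 CPM in the Ccr7 or Fscn1 cells. Klrd1, better known from NK cells, had 0 to 12 UMIs a cell with a median of 1 and stood at 565 CPM, against 232 CPM (2.43-fold, 1.53 to 3.76). Other T and NK markers did not go with it, since 9 of the 14 listed were at 0 in all 71 cells. Il1b had a median of 8 and at most 51 UMIs a cell, and its level was 3690 CPM, against 1853 CPM (1.99-fold, 1.69 to 2.34). Jun, an immediate early gene that tissue dissociation can raise, stood at 1261 CPM, against 229 CPM (5.50-fold, 3.89 to 7.77). Without the cell that carried acinar and neutrophil genes, Il1b stood at 3356 CPM and Jun at 1384 CPM in the Cd209a-only cells. Of 12 measured dissociation genes 5 were past 2-fold higher in these cells with that cell kept, beside 8.22% of 2494 genes. Dissociation genes together stood at 10410 CPM in the Cd209a-only cells, 6160 CPM in the Xcr1 or Clec9a cells, 8488 CPM in the overlap and 4101 CPM in the Ccr7 or Fscn1 cells, and their part in the other values was not tested.

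The 15 cells with both Cd209a and Ccr7 or Fscn1 all had Ccr7. Fscn1 was also detected in 1 of them, and 8 had a single Ccr7 UMI, with a median of 1 and a highest value of 10. In B cells, which also use Ccr7, 23.3% had a UMI of it, against 1.04% of C1q-high cells and 0 of 240 cells with keratins, with median depths of 2320, 3660 and 6085 UMIs in that order. Among the cDC2 genes 10 of 13 measured were past 2-fold higher than in the other 56 cells (Clec10a, Fcer1g, Il1r2, Itgam, Klf4, Ltb, Mgl2, Ms4a4c, Tnfsf9 and Zeb2) and 0 past 2-fold lower, beside 7.82% and 11.0% of 2494 genes, from which nothing is read. The list's median log2 ratio was 1.63 (1.67 with genes at 0 set to 3 counts), against -0.01 for all genes. The mature list gave 1 of 26 past 2-fold higher, Cd86, and 14 past 2-fold lower.

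Mgl2, a lectin related to Clec10a, had 0 to 31 UMIs a cell in the overlap and stood at 778 CPM, against 182 CPM in the other cells (4.28-fold, 2.90 to 6.31). The 1 cell with 31 UMIs gave a large part of this Mgl2 sum, and no ratio without it is given here. Ms4a4c, a membrane protein of the CD20 family, had 41 UMIs in 11 of the 15 cells, against 23 UMIs in the other 56 (7.10-fold, 4.16 to 12.4). Il1r2, the decoy receptor for IL-1, was at 550 CPM, against 162 CPM (3.40-fold, 2.19 to 5.27), and Il1b itself had 1 to 37 UMIs a cell with a median of 17, so no cell of this set lacked it. Cd86, a ligand of CD28, had 24 UMIs here, against 36 in the other cells (2.65-fold, 1.51 to 4.57). Osm, a cytokine of the IL-6 family, had 16 UMIs in 7 cells, against 6 (10.6-fold, 3.95 to 33.1).

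Interferon response genes were high in the overlap, but a large part came from 1 cell. Of 22 listed genes 7 were measured and 5 were past 2-fold higher (Cxcl10, Ifi27l2a, Ifitm3, Isg15 and Rsad2), with a median log2 ratio of 1.98 (2.07 with genes at 0 set to 3 counts). Over all 2494 genes, 7.82% were past 2-fold higher and 11.0% past 2-fold lower. A single cell gave 144 of the list's 492 UMIs. Without it 3 of 5 measured genes were past 2-fold higher and the median was 1.01 (1.15 with genes at 0 set to 3 counts), beside 7.6% and 11.8% of 2462 genes, from which nothing is read. Isg15, a ubiquitin-like protein, was 6.22-fold higher (3.19 to 12.5) with that cell and 2.22-fold (0.822 to 5.49) without it. Ifitm3, which blocks virus entry, did not rest on it: it had 7 to 51 UMIs in every cell of the set, median 19, and was 3.07-fold higher (2.64 to 3.56) with the cell and 2.87-fold (2.45 to 3.36) without it. Its range was 6 to 29 UMIs in the Cd209a-only cells, 0 to 54 in the Xcr1 or Clec9a cells and 0 to 13 in the Ccr7 or Fscn1 cells.

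Macrophage genes moved with this set as well. Of 20 listed, 6 of 7 measured were past 2-fold higher (among them Apoe, Cd14, Cd68, Itgam and Lyz2), beside 7.82% of 2494 genes, from which nothing is read. The list stood at 3835 CPM in the overlap, 2146 CPM in the Cd209a-only cells, 1327 CPM in the Xcr1 or Clec9a cells and 513 CPM in the Ccr7 or Fscn1 cells. In C1q-high cells, which were chosen on C1qa, C1qb and C1qc of the list, it stood at 36103 CPM. Lyz2, lysozyme, had 0 to 74 UMIs a cell in the overlap with a median of 1, and 1 cell held 74 of its 131 UMIs. The same cell held 14 Apoe UMIs and no other cell of the set more than 2, so the higher Apoe sum rests on this cell. The list level of the overlap includes it. The part of these genes in the other values was not tested.

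**Figure D2:**
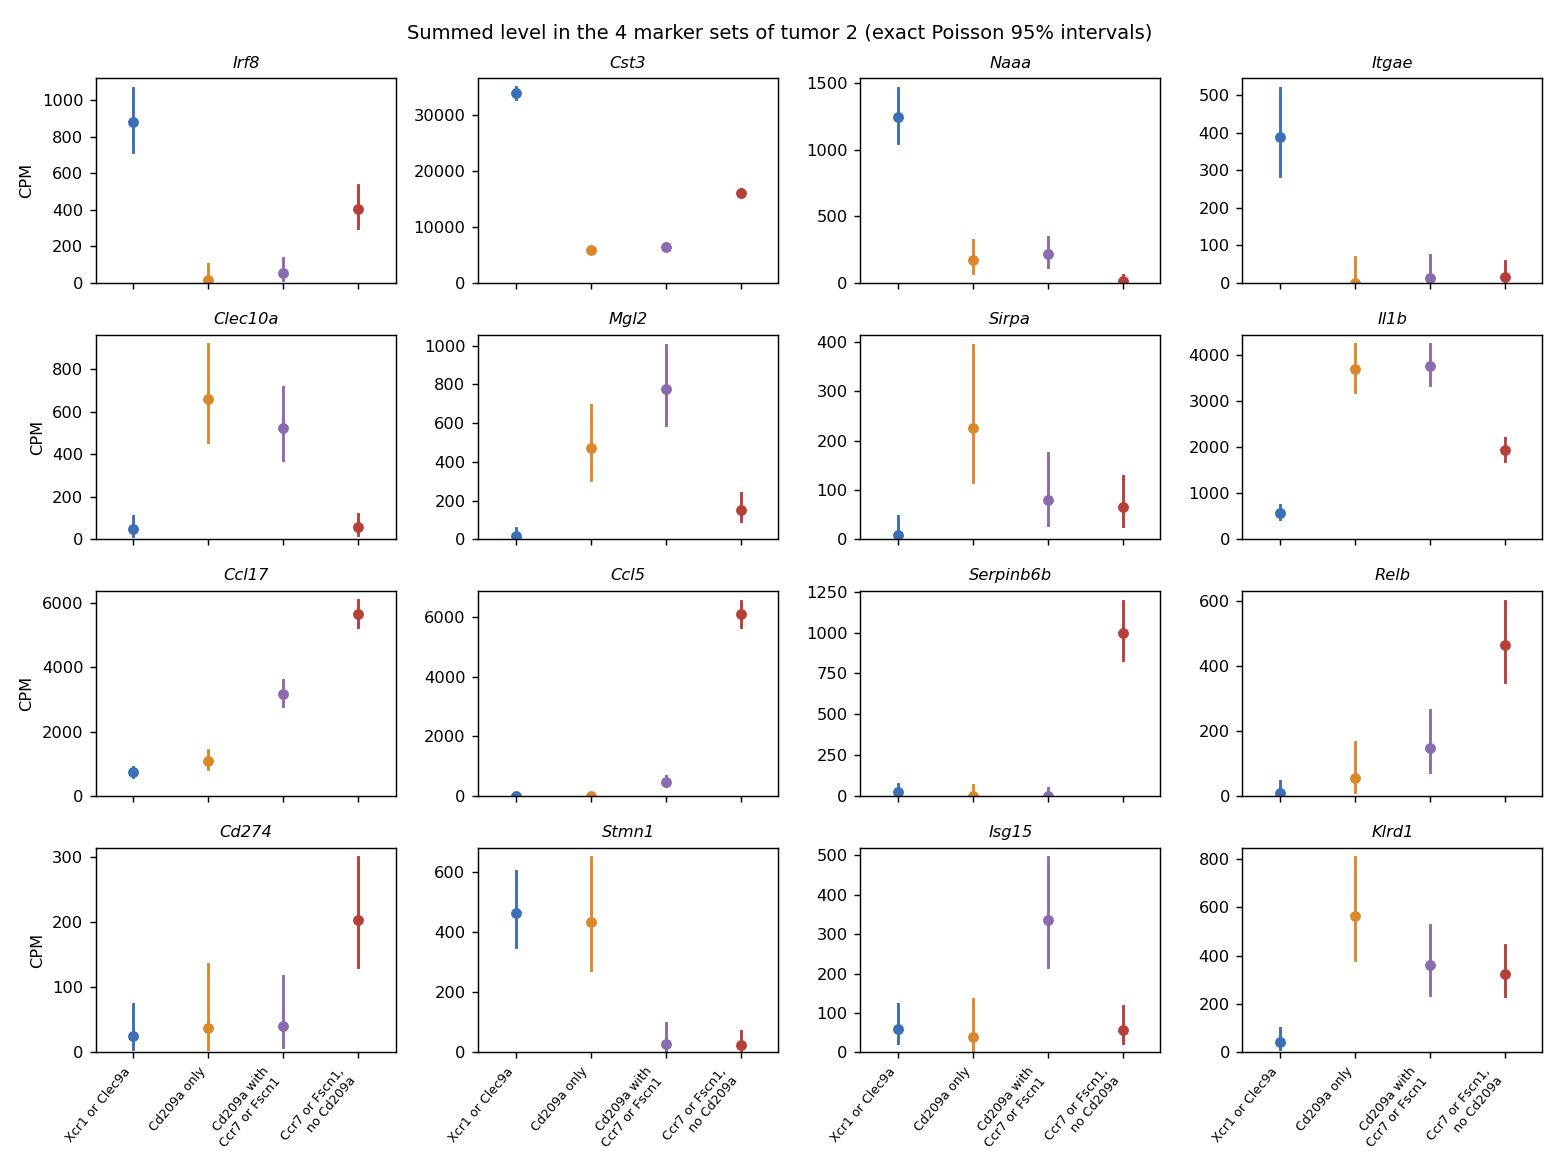
Summed level (CPM) of 16 genes in the 4 marker sets of tumor 2, which hold 16, 11, 15 and 28 cells, with exact Poisson 95% intervals for counting error. Irf8, Cst3, Naaa and Itgae are highest in the Xcr1 or Clec9a cells, Clec10a, Mgl2 and Il1b are high in both Cd209a sets, and Ccl5, Serpinb6b, Relb and Cd274 are highest in the Ccr7 or Fscn1 cells.

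The largest set was the 28 cells with Ccr7 or Fscn1 and no Cd209a. Ccr7 and Fscn1 were both detected in 19 of them, Ccr7 alone in 8 and Fscn1 alone in 1, and 22 had Ccl22, a ligand of CCR4 that draws regulatory T cells. Ccr7 had a median of 8 and at most 32 UMIs a cell. The mature migratory list gave 25 of 26 measured genes past 2-fold higher than in the other 43 cells and 0 past 2-fold lower, with a median log2 ratio of 2.72 (2.98 with genes at 0 set to 3 counts), against -0.17 for all genes. The background was 11.3% of 2494 genes higher and 17.3% lower. As the contrast is that of the rule, nothing is read from it. Cd86 was the gene of the list not past 2-fold, at 122 CPM, against 181 CPM (0.674, 0.349 to 1.23). The summed list ran between 28.1 and 570 UMIs per 10000 in these cells, median 178, and its range overlapped that of each other set, which reached 177, 173 and 303.

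Chemokines and other cytokines went both ways in the set. Of 28 listed, 14 were measured, of which 4 were past 2-fold higher (Ccl5, Ccl17, Cxcl16 and Ccl22, a gene of the rule) and 5 past 2-fold lower (Ccl3, Ccl4, Ccl6, Cxcl2 and Osm), with a median log2 ratio of -0.69 (-0.76 with genes at 0 set to 3 counts). Over all 2494 genes, 11.3% were past 2-fold higher and 17.3% past 2-fold lower, and nothing is read from these counts. Ccl4, an inflammatory chemokine, stood at 325 CPM, against 1549 CPM (0.210, 0.148 to 0.291), and Ccl3 had 2 UMIs, against 66 (0.0613, 0.00727 to 0.230). Ccl5 had 0 to 177 UMIs a cell with a median of 9.5 and was in 22 of the 28 cells, whereas outside the set it was in 2 cells, 1 of them with 33 UMIs. It stood at 6086 CPM, against 141 CPM (43.2-fold, 30.8 to 62.5). Ccl17, the other ligand of CCR4, stood at 5646 CPM, against 1537 CPM (3.67-fold, 3.24 to 4.17), and 1 cell held 350 of its 694 UMIs in the set. Every set had some Ccl17, its highest cell reaching 78 UMIs among the Xcr1 or Clec9a cells, 32 among the Cd209a-only cells and 164 in the overlap. Cxcl16, the ligand of CXCR6, was 5.69-fold higher (3.63 to 9.19), and Il12b, a subunit of IL-12 and IL-23, had 17 UMIs in 5 cells and none outside, at least 11.5-fold higher. Il15, which sustains CD8+ T and NK cells, had 8 UMIs and none outside, at least 5.39-fold higher.

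Of the 20 genes on a costimulation and checkpoint list, 9 were measured, of which 4 were past 2-fold higher in these cells (Cd200, Cd274, Cd80 and Pdcd1lg2) and 1 past 2-fold lower (Havcr2), with a median log2 ratio of 0.19 (0.21 with genes at 0 set to 3 counts). The shares over all 2494 genes were 11.3% higher and 17.3% lower, and nothing is read from these counts. Cd274 (PD-L1) had 25 UMIs in 13 of the 28 cells, against 8 in the other 43 cells (6.32-fold, 2.76 to 16.2), and Pdcd1lg2 (PD-L2) had 20, against 5 (8.09-fold, 2.95 to 27.6). Cd200, a ligand that dampens myeloid cells, had 24 UMIs and 1 outside (48.5, 7.92 to 1996). Il4i1, an amino acid oxidase that limits T cells, had 60, against 7 (17.3-fold, 7.92 to 45.0). Cd80, a ligand of CD28, was 4.30-fold higher (1.76 to 11.5), and Tnfsf9 (4-1BB ligand) stood at 65.1 CPM, against 121 CPM (0.539-fold, on 8 and 30 UMIs, with an interval that includes 1). Cd40, the receptor for CD40 ligand, had 11 UMIs, against 6, below the minimum of 20 (3.71, 1.26 to 12.2). Cd83, a surface marker of mature dendritic cells, was 2.13-fold higher (1.53 to 2.97). Tnfrsf4 (OX40), a receptor, had 14 UMIs and none outside, at least 9.44-fold higher. Ido1, a tryptophan-degrading enzyme seen in human mature dendritic cells, had 0 UMIs in all 71 cells, a sum in which 3 counts would be 8.08 CPM.

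Genes of survival, signalling and shape followed. Serpinb6b, a serine protease inhibitor, had 0 to 26 UMIs a cell with a median of 2 and 123 UMIs in all, against 3 outside the set (82.9, 27.7 to 408), and Serpinb9, the inhibitor of granzyme B, had 72, against 9 (16.2-fold, 8.07 to 36.8). Cacnb3, a calcium channel subunit, had 42 UMIs and none in the other 43 cells, at least 28.3-fold higher, and Nudt17 had 33 and none, at least 22.2-fold. Socs2, a brake on cytokine signalling, had 48, against 3 (32.4, 10.4 to 162). Relb was at 464 CPM, against 60.3 CPM (7.69-fold, 4.29 to 14.6), and Rel at 1432 CPM, against 414 CPM (3.46-fold, 2.69 to 4.45). Anxa3 (38.4-fold), Tmem123 (14.4-fold), Fabp5 (15.9-fold), AW112010 (20.7-fold), Tspan3 (19.1-fold), Epsti1 (8.51-fold) and Samsn1 (7.48-fold) were also higher by sum, and Tmem123 and Samsn1 were each seen in 26 of the 28 cells. Actin itself, Actb, had a median of 74 UMIs a cell and stood at 16695 CPM, against 8097 CPM (2.06-fold, 1.94 to 2.19).

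Several programs were low in these cells. Proliferation genes had 8 of 8 measured past 2-fold lower (median log2 ratio -2.92, or -2.68 with genes at 0 set to 3 counts). Over all 2494 genes the share past 2-fold lower was 17.3%, and nothing is read from these counts. Plac8, a protein of immature dendritic cells and other leukocytes, stood at 122 CPM, against 1472 CPM (0.0829, 0.0459 to 0.139), and Ccr2 at 16.3 CPM. Naaa had 2 UMIs in 28 cells and Itgae 2. Irf8 stood at 407 CPM, against 438 CPM (0.928, 0.650 to 1.31), and it was in 13 of the 28 cells. All 7 measured macrophage genes were past 2-fold lower, beside the same 17.3% of all genes.

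Set against the 15 Cd209a cells with Ccr7 or Fscn1, the 28 cells had 3.50 times as much Ccr7 (2.58 to 4.85) and 77.7 times as much Fscn1 (13.7 to 3091, on 128 and 1 UMIs). Of 24 measured mature genes 19 were past 2-fold higher and 1 past 2-fold lower, beside 12.9% and 13.6% of 1380 genes, from which nothing is read because the sets were chosen on Ccr7 and Fscn1. Ccl5 was 13.0-fold higher (9.24 to 18.8), Ccl22 3.50-fold (2.44 to 5.17) and Irf8 7.58-fold (2.78 to 28.9). The NF-kB list did not follow: 2 of 11 measured genes were past 2-fold higher and 1 lower, with a median log2 ratio of 0.13. Cd86 stood at 122 CPM in the 28 cells and 322 CPM in the 15 (0.379, 0.185 to 0.753). Traf1 stood at 578 CPM in the 28 cells and 577 CPM in the 15, and Nfkb1 at 578 and 657 CPM (0.879, 0.602 to 1.29). Clec10a (0.109), Mgl2 (0.199), Fcer1g (0.234) and Ifitm3 (0.154) were lower in the 28 cells.

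The NF-kB sum separated the ends of the range. It ran between 27.0 and 114 UMIs per 10000 in the Ccr7 or Fscn1 cells, median 57.6, and between 12.8 and 136 in the overlap, median 63.1. In the Cd209a-only cells it ran between 9.18 and 90.6, median 35.4, and in the Xcr1 or Clec9a cells between 4.48 and 19.5, median 10.1. The ranges of the Ccr7 or Fscn1 cells and the Xcr1 or Clec9a cells did not overlap, while the other ranges did. C1q-high cells had a median of 16.2.

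Cell cycle genes were concentrated in few cells. The 20 proliferation genes stood at 3929 CPM in the Xcr1 or Clec9a cells, 4104 CPM in the Cd209a-only cells, 751 CPM in the overlap and 594 CPM in the Ccr7 or Fscn1 cells. In the Xcr1 or Clec9a set 2 cells held 120 and 110 of 465 UMIs, and in the Cd209a-only set 2 cells held 105 and 93 of 218. Stmn1, a microtubule regulator, stood at 465, 433, 26.8 and 24.4 CPM in the 4 sets in the same order. Birc5 and Top2a had 0 UMIs in the 28 Ccr7 or Fscn1 cells, where 3 counts would be 24.4 CPM, and Top2a was seen in 6 Xcr1 or Clec9a cells and 2 Cd209a-only cells.

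**Figure D3:**
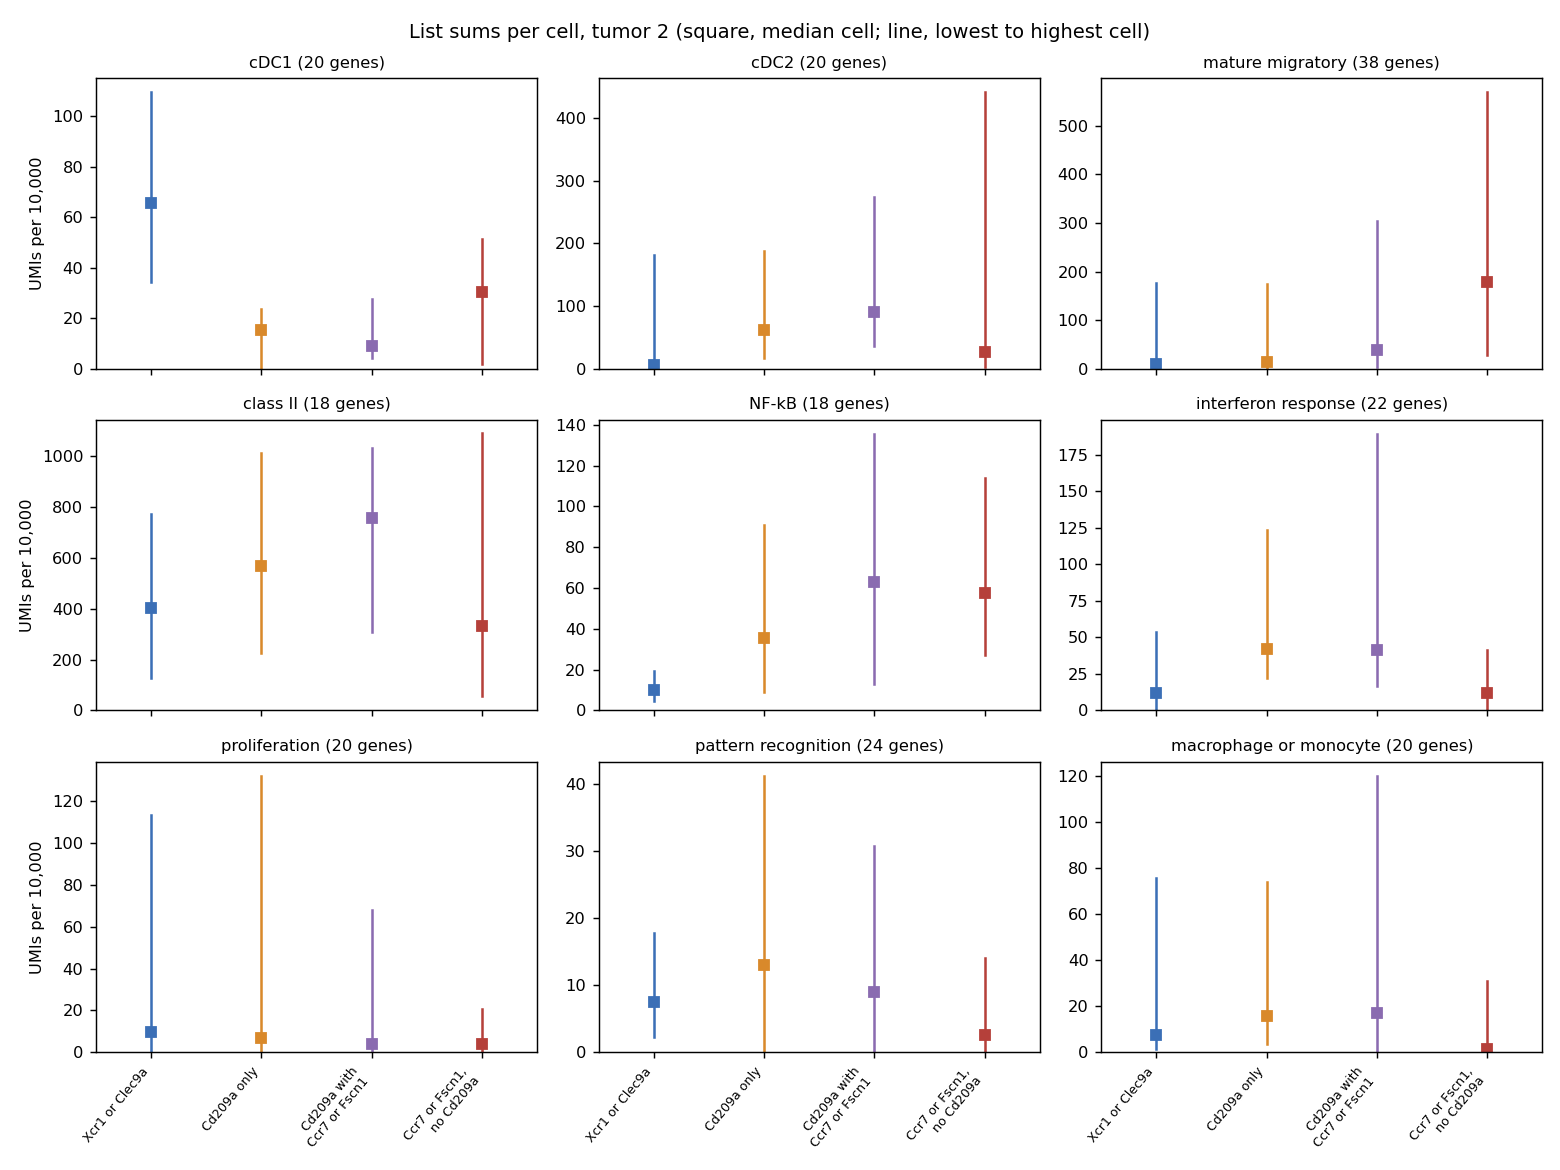
Summed level of 9 gene lists in each cell of the 4 marker sets of tumor 2, in UMIs per 10000, with squares at the median cell and lines between the lowest and highest cell. The cDC1 sum is highest in the Xcr1 or Clec9a cells (median 65.5), the mature migratory sum in the Ccr7 or Fscn1 cells (median 178), and the highest proliferation sums of single cells are 113 in the Xcr1 or Clec9a cells and 132 in the Cd209a-only cells.

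Class II genes are the means by which these cells present antigen, and they were part of the rule only through H2-Ab1, H2-Aa, H2-Eb1 and Cd74. The other class II genes code for the loader H2-DM (H2-DMa, H2-DMb1 and H2-DMb2), which exchanges the invariant chain peptide for antigen, and for H2-DO (H2-Oa and H2-Ob), which restrains H2-DM. Class II genes are driven in the main by the coactivator Ciita, which acts at an X box and a Y box before the gene start. The windows from 250 bases before to 50 bases after the start of 4 of these genes are shown, 2 of the rule and 2 outside it, because H2-Oa and H2-DMb2 had the largest ratios among the class II genes named below between dendritic cells and C1q-high cells of tumor 2. They were read from RefSeq on GRCm38.p6, the build also called mm10. Capitals mark ATTGG on either strand (the Y box core, CCAAT on the other strand) and AACNGATG (an X box core) on either strand, which did not overlap each other. H2-Aa lies at chr17:34287774-34288073 on the minus strand, and on the plus strand H2-Eb1 lies at chr17:34305617-34305916, H2-DMb2 at chr17:34144999-34145298 and H2-Oa at chr17:34092129-34092428.
H2-Aa: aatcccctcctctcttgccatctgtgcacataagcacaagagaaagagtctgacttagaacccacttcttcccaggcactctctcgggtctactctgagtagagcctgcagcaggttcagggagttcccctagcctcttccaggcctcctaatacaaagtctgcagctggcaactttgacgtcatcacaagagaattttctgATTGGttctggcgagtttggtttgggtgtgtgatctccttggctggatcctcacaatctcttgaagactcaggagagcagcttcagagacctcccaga
H2-Eb1: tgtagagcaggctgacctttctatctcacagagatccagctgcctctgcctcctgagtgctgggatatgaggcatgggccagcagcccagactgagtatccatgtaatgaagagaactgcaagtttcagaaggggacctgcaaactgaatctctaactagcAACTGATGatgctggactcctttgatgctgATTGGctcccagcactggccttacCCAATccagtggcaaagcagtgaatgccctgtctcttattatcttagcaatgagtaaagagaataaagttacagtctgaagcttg
H2-DMb2: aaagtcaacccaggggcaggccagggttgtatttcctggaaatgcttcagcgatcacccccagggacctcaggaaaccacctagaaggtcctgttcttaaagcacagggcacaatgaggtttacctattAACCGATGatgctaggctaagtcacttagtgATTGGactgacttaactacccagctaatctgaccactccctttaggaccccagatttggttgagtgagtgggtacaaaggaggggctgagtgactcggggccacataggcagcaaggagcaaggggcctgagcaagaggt
H2-Oa: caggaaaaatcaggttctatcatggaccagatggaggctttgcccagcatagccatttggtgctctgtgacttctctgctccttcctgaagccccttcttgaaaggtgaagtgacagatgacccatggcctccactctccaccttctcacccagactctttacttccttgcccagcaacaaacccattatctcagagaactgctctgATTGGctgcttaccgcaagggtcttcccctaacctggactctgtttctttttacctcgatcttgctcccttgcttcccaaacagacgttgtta
ATTGG was in the windows of all 7 class II H2 genes that could be matched (H2-Aa, H2-Eb1, H2-DMa, H2-DMb1, H2-DMb2, H2-Oa and H2-Ob) and in 12289 of 32851 promoter windows in all (37.4%). AACNGATG was in 3 of the 7 (H2-Eb1, H2-DMb1 and H2-DMb2) and in 762 of all windows (2.32%). A match in a window is a description of its letters only.

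Between the sets of tumor 2, 0 of 13 measured class II genes were past 2-fold higher in the Ccr7 or Fscn1 cells and 3 past 2-fold lower (H2-DMa, H2-DMb1 and H2-Ob), beside 11.3% and 17.3% of 2494 genes, so that the count is near the share over all genes. H2-Ab1 had a median of 53 UMIs a cell in the Xcr1 or Clec9a cells, 42 in the Cd209a-only cells, 65 in the overlap and 13.5 in the Ccr7 or Fscn1 cells, where it ran between 0 and 155. Its level in the Ccr7 or Fscn1 cells was 6574 CPM, against 13077 CPM in the other cells (0.503, 0.465 to 0.543). H2-DMb1 had 15 UMIs in 6 of those 28 cells, against 164 in the other 43 (0.185, 0.101 to 0.314). H2-DMb2, its near copy, did not share that pattern: it stood at 293 CPM in the Ccr7 or Fscn1 cells, 563 CPM in the overlap and 621 CPM in the Cd209a-only cells, and it was lowest in the Xcr1 or Clec9a cells at 84.5 CPM, against 446 CPM in the cells outside that set (0.189, 0.0884 to 0.361). Reads that fit both copies may be lost or split between them. H2-Oa was at 220, 226, 241 and 155 CPM in the Xcr1 or Clec9a, Cd209a-only, overlap and Ccr7 or Fscn1 cells, with overlapping counting intervals.

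On class I, B2m, the light chain, had 4 to 109 UMIs a cell in the Ccr7 or Fscn1 cells and stood at 6607 CPM, against 2936 CPM in the other cells (2.25-fold, 2.03 to 2.49). H2-Q7, a class I gene with close copies nearby, had 55 UMIs, against 24 (4.64-fold, 2.82 to 7.83). The class I list as a whole had 3 of 16 measured genes past 2-fold higher in these cells and 3 past 2-fold lower (Calr, Pdia3 and Wdfy4), beside the same 11.3% and 17.3%, and is near the share over all genes.

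Macrophages also carry class II genes, so the dendritic cells were set against filtered cells with the same class II minimum and C1q at or above 10 UMIs per 10000, which numbered 105 in tumor 1 and 769 in tumor 2. The C1q genes and the 7 dendritic markers made this contrast and the dendritic cells were few in tumor 1, so each tumor is given. In both tumors, 3.78% of 8919 genes were past 2-fold higher in dendritic cells and 10.5% past 2-fold lower. In tumor 2 alone it was 9.2% and 18.5% of 8389 genes, and in tumor 1 alone 11.5% and 29.0% of 4517. Nothing is read from these shares.

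Of 16 measured class II genes, 8 were past 2-fold higher in the tumor 2 dendritic cells and 2 past 2-fold lower (Ctss and Lgmn), and in tumor 1 it was 1 and 3 of 12. The shares over all genes were 9.2% and 18.5% in tumor 2 and 11.5% and 29.0% in tumor 1. The list includes H2-Ab1, H2-Aa and H2-Eb1 of the rule, so nothing is read from these counts. H2-Oa stood at 202 CPM in tumor 2 dendritic cells, from 75 UMIs, against 16 UMIs in the C1q-high cells (40.4-fold, 23.3 to 74.3), and in tumor 1 it had 3 and 7 UMIs (7.24, 1.21 to 31.7). H2-DMb2 had 123 UMIs, against 64 (16.6-fold, 12.2 to 22.8), and in tumor 1 at 399 CPM, against 69.6 CPM (5.73-fold, 3.22 to 9.80). H2-Ob was 12.1-fold higher in tumor 2 (5.93 to 25.2), on 21 and 15 UMIs. Ciita had 16 and 37 UMIs in tumor 2, 3.73-fold higher (1.94 to 6.87), and 0 UMIs in the tumor 1 dendritic cells, where 3 counts would be 63.0 CPM.

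H2-Ab1, part of the rule, stood at 10926 CPM, against 4162 CPM, in tumor 2 (2.63-fold, 2.53 to 2.72) and at 5333 CPM, against 4687 CPM, in tumor 1 (1.14, 0.998 to 1.29). H2-DMa and H2-DMb1 were not past 2-fold in either tumor, with ratios of 1.48 and 1.24 in tumor 2 and 0.944 and 0.630 in tumor 1. The proteases that cut the invariant chain and antigen were lower in dendritic cells: Ctss stood at 1720 CPM, against 4048 CPM, in tumor 2 (0.425, 0.392 to 0.460) and at 987 CPM, against 5356 CPM, in tumor 1 (0.184, 0.135 to 0.245). Lgmn had ratios of 0.147 (0.109 to 0.194) and 0.434 (0.247 to 0.711). On the class I side, Psmb8, an immunoproteasome subunit, was 3.68-fold higher in tumor 2 (3.28 to 4.11) and 3.52-fold in tumor 1 (2.49 to 4.87).

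B cells, the third population with class II genes, gave a different picture, with 103 cells in tumor 2. Over them 16.0% of 4110 genes were past 2-fold higher in dendritic cells and 11.1% past 2-fold lower, and with both tumors the shares were 6.2% and 3.25% of 4616, from none of which anything is read. H2-DMb2 stood at 331 CPM in dendritic cells and 409 CPM in B cells (0.809, 0.626 to 1.04), and H2-Oa at 202 and 225 CPM (0.896, 0.639 to 1.26), so both intervals include 1. H2-Ob was lower in dendritic cells than in B cells, at 56.5 CPM, against 302 CPM (0.187, 0.111 to 0.303). H2-Ab1 was 3.04-fold higher (2.84 to 3.24) and H2-DMb1 3.45-fold (2.47 to 4.91). The B cell sum also carried neutrophil genes at 6663 CPM, against 700 CPM in dendritic cells, whose part was not tested.

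**Figure D4:**
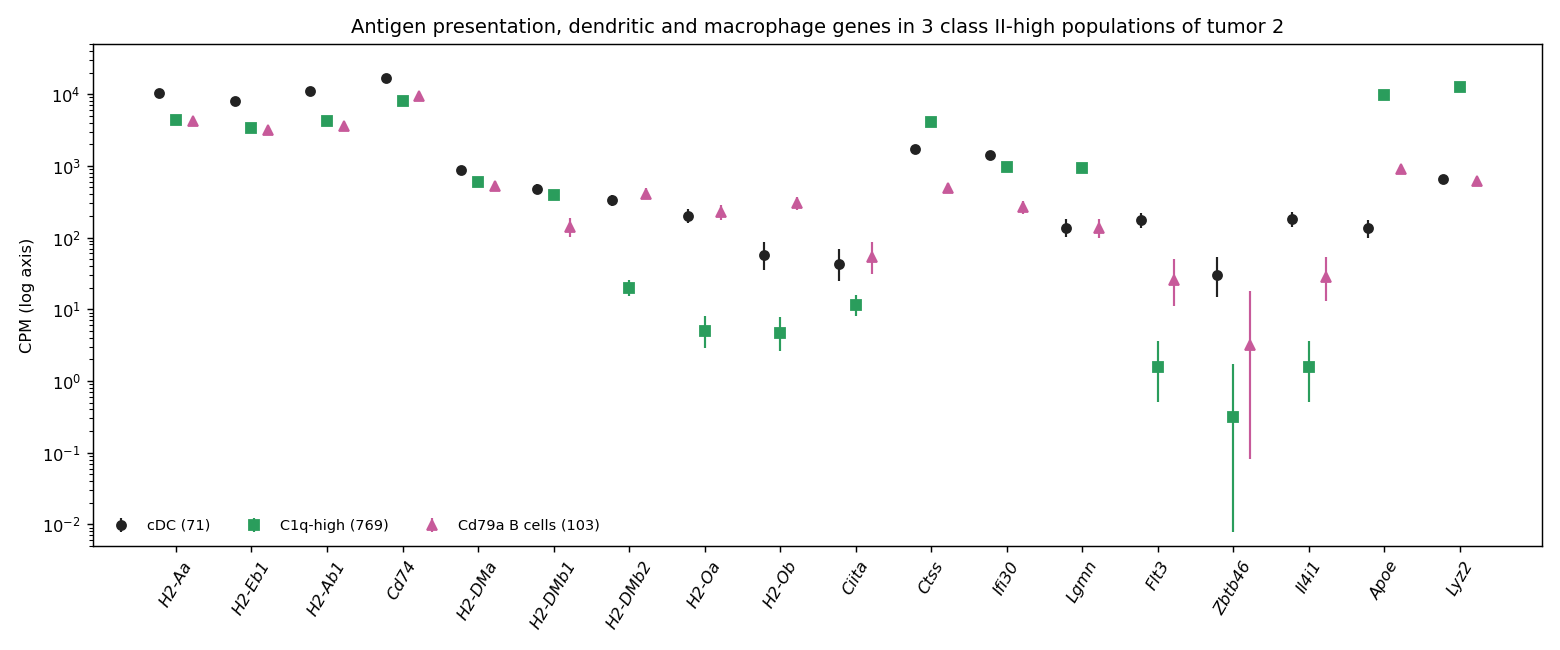
Antigen presentation, dendritic and macrophage genes in the 71 dendritic cells, the 769 C1q-high cells and the 103 B cells of tumor 2, in CPM on a log axis with exact Poisson 95% intervals. H2-DMb2, H2-Oa and H2-Ob are well above the C1q-high cells in dendritic cells and B cells, while Apoe and Lyz2 are far higher in C1q-high cells.

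Beyond antigen presentation, 28 of 33 measured mature genes were past 2-fold higher than in C1q-high cells in tumor 2 (median log2 ratio 1.79) and 14 of 22 in tumor 1 (2.03), with 1 and 2 past 2-fold lower. Over all genes, 9.2% were past 2-fold higher and 18.5% lower in tumor 2, and 11.5% and 29.0% in tumor 1. Serpinb6b had 126 UMIs in 71 dendritic cells, against 4 in 769 C1q-high cells (272-fold, 103 to 1012), and in tumor 1 it had 39, against 0, at least 220-fold higher. Il4i1 had 67, against 5 (116-fold, 47.1 to 367), and in tumor 1 20, against 0, at least 113-fold higher. Ccl5 was 69.6-fold higher in tumor 2 (56.3 to 86.8), and in tumor 1 it had 125 UMIs, against 0. Cst3 stood at 18349 CPM, against 3243 CPM, in tumor 2 (5.66-fold, 5.49 to 5.83) and at 5312 CPM, against 3928 CPM, in tumor 1 (1.35, 1.19 to 1.54). Id2 was 4.45-fold higher (3.93 to 5.03) in tumor 2 and 3.25-fold (2.56 to 4.10) in tumor 1. Klrd1 stood at 280 CPM, against 7.49 CPM, in tumor 2 (37.4-fold, 23.8 to 60.9) and had no UMI in either population of tumor 1.

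Macrophage genes were low in dendritic cells, with 19 of 20 past 2-fold lower in tumor 2 (median log2 ratio -4.00, or -3.47 with genes at 0 set to 3 counts) and 17 of 18 in tumor 1 (-5.16, or -2.76), 3 of the 20 being the C1q genes of the rule. The shares of all genes past 2-fold lower were 18.5% in tumor 2 and 29.0% in tumor 1. Apoe stood at 135 CPM, against 9746 CPM, in tumor 2 (0.0138, 0.0102 to 0.0182) and at 777 CPM, against 14281 CPM, in tumor 1 (0.0544, 0.0383 to 0.0750). The tumor 1 level came mostly from 1 cell, which also carried Dcn and had 33 Apoe UMIs. No other dendritic cell of tumor 1 had more than 2. Arg1, the arginase of tumor macrophages, had 5 UMIs, against 4473 (0.00964, 0.00313 to 0.0225), and 1 in tumor 1, against 1207. Of 20 measured pattern recognition genes, 12 were past 2-fold lower in tumor 2, among them Tlr2, Tlr4, Tlr7, Tlr8 and Cd14, and 1 was past 2-fold higher, Tlr3.

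The 6 cells of tumor 1 comprised 2 with Cd209a alone, 1 with Cd209a and Fscn1, and 3 with both Ccr7 and Fscn1. No cell had Xcr1 or Clec9a, and among 6 cells 3 would be 50%, so the share of 22.5% in tumor 2 was not detectable as different at this number of cells. The 3 Ccr7 and Fscn1 cells had 94, 25 and 6 UMIs of Ccl5, and the tumor's other 3 cells had none. Their mature sum lay between 127 and 355 UMIs per 10000, within the range of the 28 cells of tumor 2. In both tumors, 137 genes (4.99% of 2744) were past 2-fold higher in the Ccr7 or Fscn1 cells than in the other dendritic cells and 122 (4.45%) past 2-fold lower. Led by Ccl5, Fscn1, Serpinb6b and Anxa3, the genes with the largest smaller ratio over the 2 tumors also included Tmem123, Il4i1, AW112010, Fabp5, Ccl22, Tspan3 and Epsti1. For the Cd209a-only cells, 50 genes (1.82%) were past 2-fold higher in both tumors and 114 (4.15%) past 2-fold lower, 5.98% in either direction. They included Ahnak, Emp1, Pid1, Clec4n, Itgam, Runx1 and Krt18, a keratin with 36 UMIs, against 1, in tumor 1 and 1, against 0, in tumor 2. The tumor 1 side of this comparison is 2 cells, and 1 of them held 14483 of their 20423 UMIs and 35 of the Krt18 UMIs. Without cells that carried markers of other types, 110 of 2535 genes were past 2-fold in either direction, 35 of them higher.

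Between the tumors, 233 of 2744 genes (8.49%) were past 2-fold higher in the dendritic cells of tumor 1 than in those of tumor 2 and 646 (23.5%) past 2-fold lower, a comparison of 6 and 71 cells in which the median gene had a log2 ratio of -0.23. The largest ratios came from single cells. Dcn, a fibroblast matrix gene, had 91 UMIs in tumor 1, all in the cell with Cd209a and Fscn1, against 1 UMI in tumor 2, and Mgp had 43 in 1 cell, against 0. Krt18 and Krt8, of epithelial cells, had 35 of 37 and 18 of 19 UMIs in a Cd209a cell of 14483 UMIs, the deepest of the 6. Apol7c, an apolipoprotein L gene, had all of its 76 UMIs in 1 Ccr7 and Fscn1 cell, against 4 in tumor 2. Fibroblast genes stood at 2331 CPM in the tumor 1 cells, against 29.6 CPM in those of tumor 2, and ductal genes at 1386 CPM, against 32.3 CPM, and their part in these ratios was not tested. Among genes lowest in tumor 1, Klrd1 had 0 UMIs, against 104, Mpeg1 0, against 81, Ccr2 0, against 66, and Ppt1 0, against 64. Of 13 measured cDC1 genes, 0 were past 2-fold higher in tumor 1 and 8 past 2-fold lower, in a sum with no Xcr1 or Clec9a cell.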

How the data were processed

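The values are counts deposited by the authors, whole numbers of UMIs for each gene and barcode. The submitters' processing notes name CASAVA 1.4, Cell Ranger 2.0.0 and, as build, mm10, and for the step that picked barcodes the sources used here give no account. Gene and barcode names came from other tables the authors deposited, with 27998 genes of which 65 symbols occurred more than once. The design text speaks of technical replicates, while the labels give 4 libraries, and each library was 1 sample.

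The members, marker sets and gene lists were chosen with earlier results of these data known. Of 398 listed genes 3 (Nectin2, Clec7a and Iglc2) had no entry. UMIs were summed over cells and divided by the sum of all UMIs (CPM), with exact Poisson 95% intervals, exact Clopper-Pearson intervals for shares and exact conditional intervals for ratios, all for counting error only. A gene was past 2-fold where the log2 ratio, with a prior count of 2, was at least 2-fold either way, in each tumor where both entered, among genes with at least 20 UMIs over the compared sums. A ratio printed with an interval has no prior count, and a sum of 0 was set to 3 counts for "at least". Named genes were those of the rule and the lists, the 10 largest and 10 smallest log2 ratios between the tumors, and for the other comparisons the 12 largest by the smaller ratio over the tumors. Other genes named as lower in a set, and those ranked in tumor 2 alone, were chosen after their values were seen. Doublets were scored with scrublet in scanpy 1.11.5 (expected rate 0.05), kept, and left out in an alternative at 0.8% per 1000 barcodes. The Xcr1 or Clec9a contrast was made in tumor 2 only, because tumor 1 held no such cell. Contrasts of the other sets in tumor 2 alone, of the Ccr7 or Fscn1 cells with and without Cd209a, and without single cells, and the lineage sum without Cst3, were added after seeing the data. The steps were tested on simulated data. Python 3.11.15, numpy 2.4.6, scipy 1.17.1, pandas 2.3.3, matplotlib 3.10.9 and, for TMM scaling in an alternative, edgeR 4.0.16 in R 4.3.3 were used. Some items are not reported here.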

Additional observations from a re-analysis of the deposited data

How the results depend on the processing

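Few cells and low counts set the limits: shares of cells and of marker sets move with depth, sums of 6 to 28 cells rest on single cells for some genes, and counts of genes past 2-fold depend on the minimum of UMIs. No paired analysis was possible because no result comes from a fit and each tumor has 1 all live library.

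With 3 or more rule markers, all live library 2 held 0.905% dendritic cells, of which 12.9% had Xcr1 or Clec9a, 22.6% Cd209a and 87.1% Ccr7 or Fscn1. The 3 such cells of library 1 gave 0 with Cd209a and 100% with Ccr7 or Fscn1. Thinned to 1600 UMIs a cell, the shares were 0.103% in library 1, with 0 Cd209a and 100% Ccr7 or Fscn1 cells, and 1.11% in library 2, with 7.89% Xcr1 or Clec9a and 78.9% Ccr7 or Fscn1 cells, and 182 genes were past 2-fold between the tumors. With at most 5% mitochondrial UMIs, library 2 held 2.66%.

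Counts of genes past 2-fold in either direction were 879 between the tumors, 612 for Xcr1 or Clec9a cells, 164 for Cd209a cells, 259 for Ccr7 or Fscn1 cells, 1276 over C1q-high cells and 436 over B cells. At 100 UMIs they were 119, 88, 39, 66, 540 and 142 in that order. With no minimum they were 4398 between the tumors, 2287 for Xcr1 or Clec9a cells and 270 for Cd209a cells. A prior count of 0.5 gave 310 for Cd209a and 444 for Ccr7 or Fscn1 cells, and leaving out cells with markers of other types gave 152 for Ccr7 or Fscn1 cells. With 1 tumor left out in turn, counts were 131 to 537 for Cd209a cells, 113 to 713 for Ccr7 or Fscn1 cells, 1832 to 2324 over C1q-high cells and 285 to 1115 over B cells, the higher values without tumor 1. A gene then had to pass in 1 tumor only. The other 99 values of this kind stayed within 1.5 times or their interval, and no value reversed. Of values for single genes, 67 moved and 981 did not. Apart from that of the Xcr1 or Clec9a cells, contrasts within 1 tumor alone were not repeated under the other alternatives. The same holds for the Ccr7 or Fscn1 cells with and without Cd209a.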
